A study of Drosophila melanogaster with 4 samples.

Results

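The telomere-side ends of the Drosophila melanogaster chromosome arms 2L, 3L, 3R and X were examined for trimethylation of lysine 9 of histone H3 (H3K9me3). Each end was taken as the last 200 kb of the assembled arm. On 2L, 3L and X this is the stretch from 1 to 200000, and on 3R the stretch from 27705054 to 27905053, in FlyBase release 5. The ends were divided into 800 windows of 1 kb, out of 139719 windows over all sequences that carry clusters, and every window was kept whatever its value.

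Chromatin came from nuclei of wild-type Oregon-R larvae at the third instar, and all 4 samples share this strain, genotype and stage. For 2 samples an H3K9me3 antibody, which the labels call a new lot, was used to precipitate chromatin. The other 2 samples were input chromatin, each named as the input of the ChIP library with the same number. The values are the authors' calls of significantly enriched stretches, termed clusters here, in 1 list for each ChIP replicate and 1 combined list for the replicate set. The labels do not say whether the replicates came from separate animals or preparations, so the spread between them may be technical. Nuclei of whole larvae hold many cell types, and a cluster does not tell in which of them the mark was present.

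Fly telomeres are not built from short telomerase repeats. They are arrays of the telomere-specific retrotransposons HeT-A, TART and TAHRE, followed inwards by telomere-associated satellite repeats and then by unique sequence with genes. H3K9me3 is the mark bound by heterochromatin protein HP1a, which is also part of the protein cap of fly telomeres. Reporter genes inserted in the satellite repeats are silenced, a behaviour known as telomeric position effect. Whether that silencing involves this mark was not tested here. The sequence of an assembled arm stops at a point that differs between arms, so distance from the arm end is not distance from the end of the chromosome. The gene table used for names lists l(2)gl, a tumour suppressor that acts in cell polarity, as the protein-coding gene nearest the end of 2L. It is followed there by Ir21a, an ionotropic receptor, and Cda5, a member of the chitin deacetylase family. The corresponding genes are mthl8, CG43149 and Lsp1gamma, a larval serum protein, on 3L. On 3R they are Map205, a microtubule-associated protein, mod, and krz, the fly beta-arrestin, and on X they are SteXh:CG42398, CG17636 and RhoGAP1A, a GTPase-activating protein. The table is on release 6, so these names give order only, and no gene was set against a cluster.

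Replicate 1 held 16 clusters in the 4 ends, replicate 2 held 17 and the combined list 25, and none crossed the inner limit at 200 kb. These are 20.0, 21.25 and 31.25 clusters per Mb, beside 12.5, 14.1 and 24.6 per Mb in the rest of the 4 arms without their centromere-side 2 Mb. On 2L, 3R and X a cluster present in both replicates lay within the outermost 20 kb. On 3L these 20 kb were empty in all 3 lists, and the clusters shared by the replicates lay between 51.8 and 103.5 kb from the end. X carried a further group between 97.1 and 137.5 kb. Of the 800 windows, 682 (85.25%) had no covered base in any list, beside 91.3% of the windows in the rest of the arms.

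**Figure D1:**
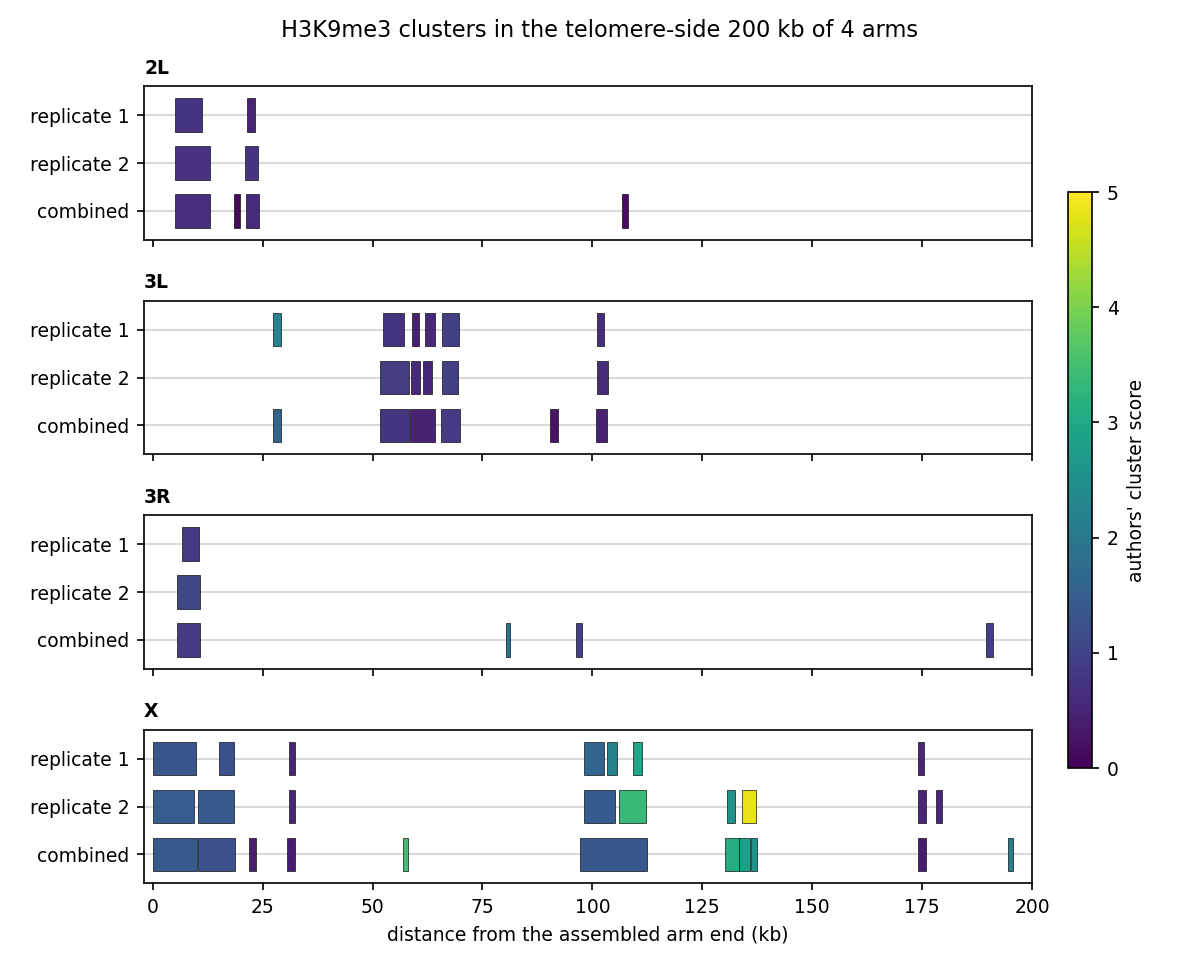
Clusters in the telomere-side 200 kb of 2L, 3L, 3R and X, drawn by distance in kb from the assembled arm end (horizontal axis) for replicate 1, replicate 2 and the combined list, with colour giving the authors' score. Clusters sit within the first 20 kb on 2L, 3R and X but not on 3L, and on X replicate 2 has a cluster with a score of 4.84 at a place where replicate 1 has none.

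The X end was the most covered. Clusters covered 12.3% of its bases in replicate 1 and 20.0% in replicate 2, a mean of 16.2% ± 5.47 (SD, n = 2 replicates, as in all values with an error that follow). The 3L end was covered at 7.81% and 8.42%, a mean of 8.12% ± 0.432. The 2L end was covered at 3.95% and 5.43%, a mean of 4.69% ± 1.04. The 3R end was the least covered, at 1.91% and 2.62%, a mean of 2.26% ± 0.500. This order, X above 3L above 2L above 3R, was the same in both replicates, and the replicate values of neighbouring ends in it did not overlap. The combined list gave the same order with 23.9%, 11.4%, 6.85% and 4.57%. Replicate 2 covered more than replicate 1 at all 4 ends. The 4 ends together were covered at 6.49% in replicate 1 and 9.12% in replicate 2, and X held 47.3% and 54.9% of these covered bases. Outside the ends and the centromere-side 2 Mb, X was likewise the most covered arm, at 7.90% beside 1.68% to 2.93% on the others.

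Each end was compared with the rest of its own arm, without its centromere-side 2 Mb, since pericentromeric heterochromatin is rich in this mark. Coverage was higher in the end than in the rest on all 4 arms in both replicates, but by very different amounts. On 3L the rest was covered at 2.14% ± 0.259, and the end exceeded it by 5.98 percentage points ± 0.173, a ratio of 3.81 ± 0.259. On X the rest was covered at 7.90% ± 1.41, and the end exceeded it by 8.25 percentage points ± 4.07, a ratio of 2.01 ± 0.334. The difference on X was 5.38 percentage points in replicate 1 and 11.1 in replicate 2. On 2L the rest was covered at 2.93% ± 0.232, the difference was 1.76 percentage points ± 0.812 and the ratio 1.59 ± 0.230. On 3R the rest was covered at 1.68% ± 0.170, and the difference was only 0.583 percentage points ± 0.330, a ratio of 1.34 ± 0.162. The lower of the replicate values of the end lay above the higher value of the rest on each arm. On 3R these values were 1.91% and 1.80%.

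On 2L, 3L and 3R the differences depended on clusters below the median score of the whole lists. On all 4 arms they changed with the length of the end. With only the clusters at or above the median score of each replicate list, no base of the 2L and 3R ends was covered in either replicate. The differences became -0.62 and -0.18 percentage points. This limit was 1.75 in replicate 1 and 1.43 in replicate 2, over whole lists that include heterochromatin. Clusters in the rest of the 4 arms had a median score of 0.68 in both replicates, so most of them also fell below it. The 3R cluster of the end scored 0.83 in replicate 1 and 1.06 in replicate 2, beside medians of 0.61 and 0.60 in the rest of 3R. The 2L clusters of the end scored 0.74 and 0.48 in replicate 1, beside a median of 0.64 in the rest of 2L. In replicate 2 they scored 0.71 and 0.76, beside 0.62. On 3L the same limit brought the difference to 0.283 percentage points, with 0.795 in replicate 1 and -0.229 in replicate 2. On X it left a difference of 5.54 percentage points, with 1.84 in replicate 1 and 9.25 in replicate 2. The X end was then covered at 2.14% in replicate 1 and 10.2% in replicate 2. Its outermost cluster, with a score of 1.45, narrowly passed the limit of 1.43 in replicate 2. In replicate 1 the matching cluster scored 1.32 and fell below the limit of 1.75. With ends of 400 kb in place of 200 kb the difference was -0.56 percentage points on 3R, 1.57 on X, 3.39 on 2L and 3.85 on 3L. On 2L the stretch from 200 to 400 kb was covered at 7.86% by the replicate mean, more than the 4.69% of the end. On the other arms that stretch was less covered than the end, at 3.83% on 3L, 0% on 3R and 2.90% on X. Ends of 100 kb gave 2.85 on 3R, 6.47 on 2L, 12.2 on 3L and 10.5 on X. On 2L and 3R every replicate cluster of the end lay within the outer 100 kb, so the shorter end has a higher coverage by construction. No p-value was computed, because both replicate lists belong to 1 group and the inputs have no list among those used here.

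**Figure D2:**
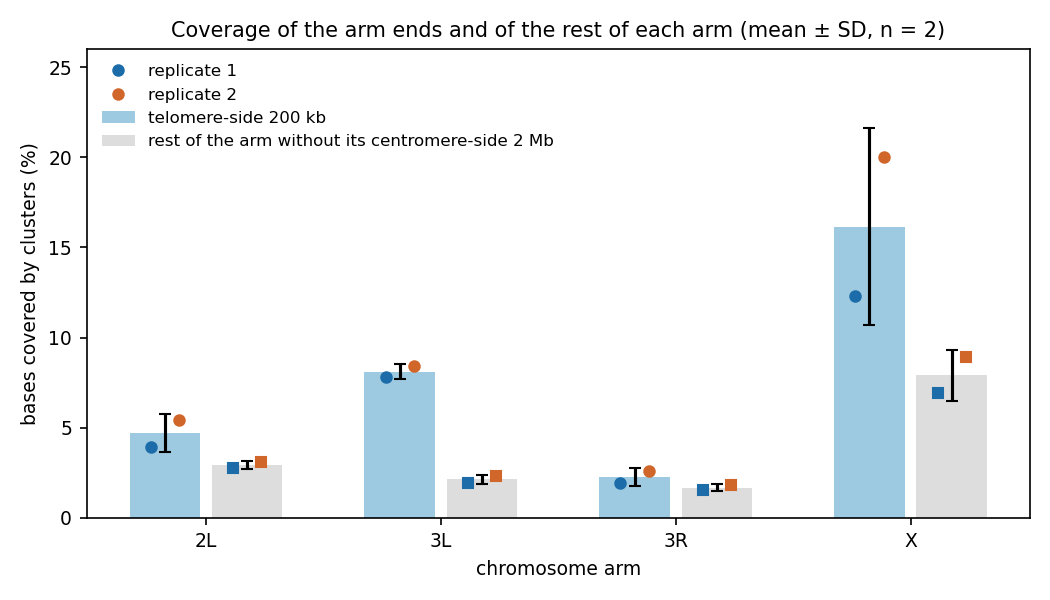
Percent of bases covered by clusters (vertical axis) in the telomere-side 200 kb and in the rest of each arm without its centromere-side 2 Mb; bars are means, error bars SD over 2 replicates, and points the replicates. The X end reaches 20.0% in replicate 2, and the 3R end stays within 1 percentage point of the rest of 3R.

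Dense coverage was found at the other end of some of these arms. The centromere-side 200 kb were covered at 88.7% ± 1.01 on 2L and 93.4% ± 0.556 on 3L, against 4.69% and 8.12% at the telomere side. On 3R the centromere-side value was 17.6% ± 1.85, also above the 2.26% of the telomere side. On X it was 12.9% ± 4.10 against 16.2% ± 5.47 at the telomere side, so the telomere side was higher by 2.28 percentage points in replicate 1 and 4.22 in replicate 2 (mean 3.25 ± 1.37). In the combined list the order was reversed, with 23.9% at the telomere side and 26.5% at the centromere side.

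To place the ends among stretches of equal length, each arm without its centromere-side 2 Mb was divided into tiles of 200 kb counted from the telomere side. By the replicate mean, the 3L end ranked 6 from the top among 112 tiles, and 24 tiles had no coverage. The X end ranked 10 among 102 tiles, the 2L end ranked 20 among 105 and the 3R end ranked 32 among 129. None of the ends was the most covered tile of its arm, and the highest tiles reached 11.8% on 3L, 26.3% on X, 46.8% on 2L and 9.57% on 3R. The median tile was covered at 1.31% on 3L, 6.67% on X, 1.25% on 2L and 0.922% on 3R, so each end lay above the median of its arm. In the combined list the ends ranked lower, at 11 on 3L, 15 on X, 27 on 2L and 36 on 3R. These ranks describe the arms and are no test.

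**Figure D3:**
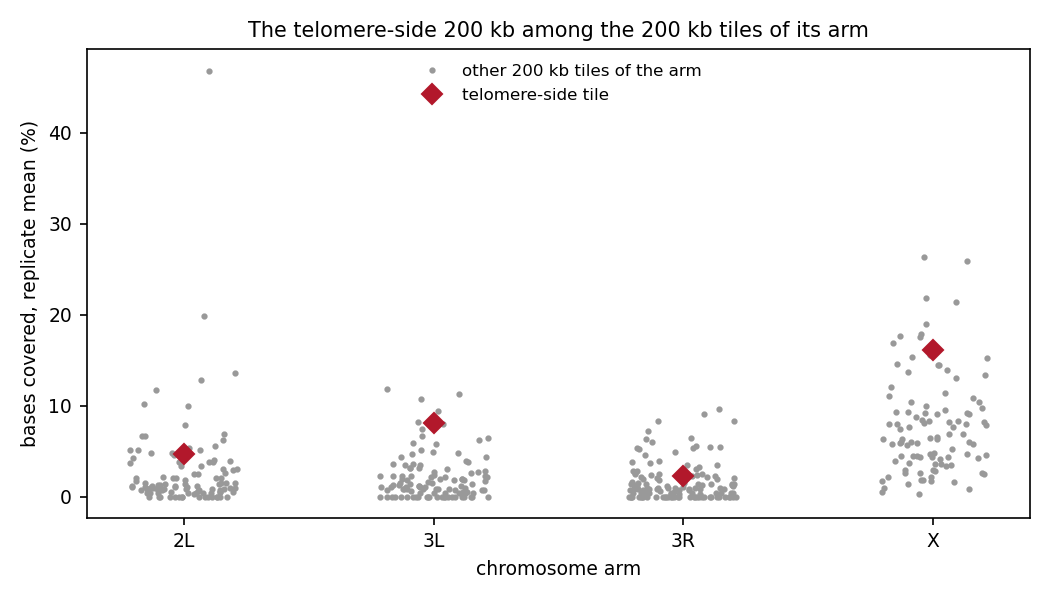
Percent of bases covered, as the mean of 2 replicates (vertical axis), for every 200 kb tile of the 4 arms outside the centromere-side 2 Mb; the diamond marks the telomere-side tile and small points the other tiles, spread sideways for legibility. The diamonds lie above the median tile of each arm, and tiles with more coverage exist on all 4 arms.

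Within the ends, the outermost 20 kb were more covered than the following 180 kb on 3 of the 4 arms. On X the first 20 kb were covered at 64.8% in replicate 1 and 87.6% in replicate 2, a mean of 76.2% ± 16.1, against 9.49% ± 4.29 from 20 to 200 kb. On 2L they were covered at 30.9% and 39.9%, a mean of 35.4% ± 6.39, against 1.28% ± 0.451 further in. On 3R they were covered at 19.1% and 26.2%, a mean of 22.6% ± 5.00, and the following 180 kb held no cluster in either replicate. 3L went the other way, with 0% in the first 20 kb and 9.02% ± 0.480 further in. Among all 20 kb tiles outside the centromere-side 2 Mb, the outermost tile ranked 4 from the top of 1021 on X, 15 of 1295 on 3R and 19 of 1050 on 2L by the replicate mean. On 3L it was tied at 0% with 908 of the 1127 tiles. The 3R tile ranked 21 in replicate 1 and 13 in replicate 2. In the combined list the outermost tile ranked 7 on X, 52 on 3R and 23 on 2L. The bin of 20 kb was chosen after the clusters had been seen.

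**Figure D4:**
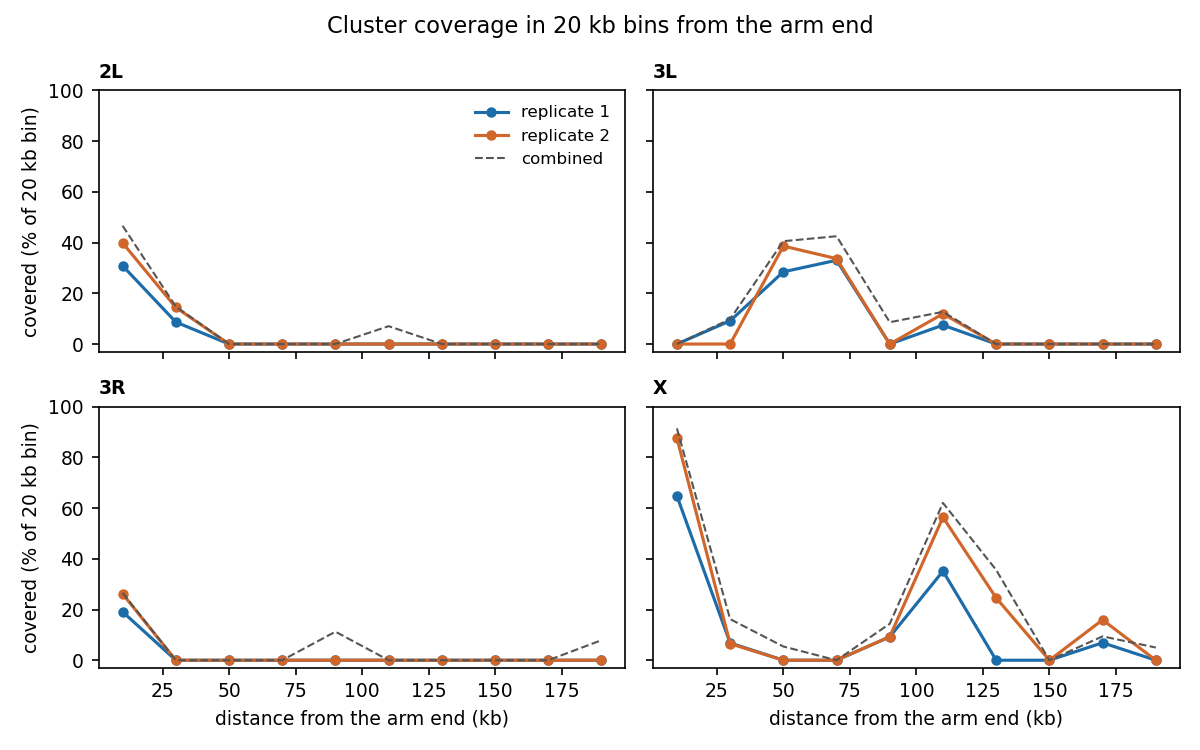
Percent of each 20 kb bin covered by clusters (vertical axis) against distance in kb from the arm end, for replicate 1, replicate 2 and the combined list. Coverage is highest in the first bin on 2L, 3R and X, whereas 3L is at 0% there and reaches 33.6% and 33.4% (replicate means) from 40 to 60 and from 60 to 80 kb.

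The 2L end held a pair of clusters in each replicate. The outer one was also the nearest to the telomere, the widest and the highest-scoring of the combined list, where it ran from 5044 to 13026 (7983 bp, score 0.68). In replicate 1 it measured 6171 bp and scored 0.74, and in replicate 2 it measured 7977 bp and scored 0.71. Its telomere-side edges in the replicates were 32 bp apart and its inner edges 1774 bp apart. The first 5.04 kb of the assembled arm, outside this cluster, carried none. The inner cluster ran from 21511 to 23245 (score 0.48) in replicate 1 and from 21047 to 23930 (score 0.76) in replicate 2. Every base covered on this end in replicate 1 was also covered in replicate 2. The combined list added 1 cluster between them and 1 at 106.6 kb, with scores of 0.13 and 0.16. From 108047 to 200000, over 92.0 kb, no list had a cluster.

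The 3R end held a single cluster in each replicate, close to the arm end. It ran from 27894633 to 27898450 (3818 bp, score 0.83) in replicate 1 and from 27894231 to 27899463 (5233 bp, score 1.06) in replicate 2. The whole of the replicate 1 cluster lay inside that of replicate 2. In the combined list it ran from 27894240 to 27899554, 5.50 kb from the arm end, and was both the nearest to the telomere and the widest of this end, with a score of 0.88. The highest-scoring combined cluster, from 27823782 to 27824810 (1029 bp, score 1.88), overlapped neither replicate, nor did the other 2 combined clusters of this end. The widest stretch without a cluster in any list ran from 27715564 to 27807450 (91.9 kb).

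The 3L end was arranged differently. Its shared clusters formed a group from 51.8 to 69.6 kb, followed by 1 cluster near 101 kb. In the combined list the widest ran from 51702 to 58327 (6626 bp, score 0.77). It was covered at 71.2% by replicate 1 and 98.5% by replicate 2. Next came clusters from 58514 to 64231 (score 0.48) and from 65533 to 69805 (score 0.87). The last of these was of like width in the replicates, with 3808 bp and a score of 0.92 in replicate 1, and 3711 bp and a score of 0.93 in replicate 2. The edges lay 20 bp and 117 bp apart.

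A cluster on 3L was seen in replicate 1 alone among the replicates. It ran from 27278 to 29108 (1831 bp) with a score of 2.19, the highest of this end in replicate 1, and no base of it was covered in replicate 2. The combined list called it from 27284 to 29249 with a score of 1.60. There it was the cluster nearest to the telomere and also the highest-scoring of the end. The first 27.3 kb of 3L had no cluster in any list, and the widest stretch without one ran from 103495 to 200000 (96.5 kb).

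The X end began with clusters at its very tip. The first one started 0.098 kb from the arm end in replicate 1 and 0.138 kb in replicate 2, and ran from 99 to 9746 (score 1.32) and from 139 to 9395 (score 1.45). The combined list gave 71 to 10001 (9931 bp, score 1.40), and this was the cluster nearest to the telomere. A second cluster followed, from 15132 to 18439 (3308 bp, score 1.24) in replicate 1 and from 10269 to 18528 (8260 bp, score 1.42) in replicate 2. Their inner edges were 89 bp apart, whereas the telomere-side edge lay 4863 bp further out in replicate 2, so that replicate 1 left a gap where replicate 2 was covered. A narrow cluster near 31 kb was found in both replicates with scores of 0.51 and 0.53. From 58064 to 97124 (39.1 kb) no list had a cluster, the widest empty stretch of this end.

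The inner group on X held the highest score of the ends within each replicate list, though not within the combined list. Between 90 and 140 kb replicate 1 had 3 clusters over 8872 bp, with scores from 1.58 to 2.95, and replicate 2 had 4 clusters over 18046 bp, with scores from 1.43 to 4.84. The widest combined cluster of all 4 ends lay here, from 97125 to 112407 (15283 bp, score 1.36), covered at 58.1% by replicate 1 and 85.9% by replicate 2. The highest-scoring replicate 1 cluster of the ends ran from 109136 to 111310 (score 2.95), inside a replicate 2 cluster from 106033 to 112209 (score 3.37). These ranked 16 among the 1384 clusters of the 4 arms in replicate 1 and 14 among the 1565 in replicate 2.

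The replicates differed at the inner side of this group. Replicate 2 had clusters from 130591 to 132458 (score 2.52) and from 134095 to 137142 (3048 bp, score 4.84), and replicate 1 had none between 120 and 140 kb. The second of these scores ranked 2 among the 1565 replicate 2 clusters of the 4 arms and 5 among all 3287 clusters of that list. The combined list had 3 clusters there, from 130115 to 137499, with scores of 3.07, 2.77 and 2.53. From 120 to 140 kb, replicate 1 was covered at 0%, replicate 2 at 24.6% and the combined list at 35.6%. The highest-scoring combined cluster of the X end was elsewhere, from 56981 to 58063 (1083 bp, score 3.47), and overlapped neither replicate. Near the inner limit, clusters at 174 kb were shared (scores 0.54 and 0.51), and 1 cluster at 178.1 kb (score 0.58) was called in replicate 2 and in neither of the other lists.

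**Figure D5:**
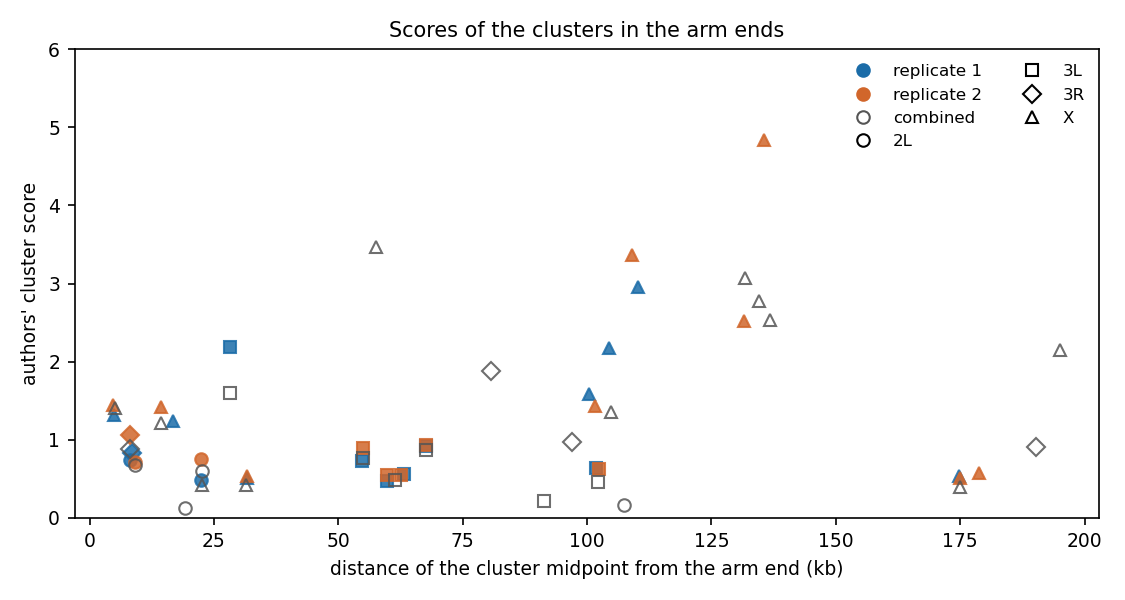
Authors' cluster score (vertical axis) against distance in kb of the cluster midpoint from the arm end; colour gives the list and symbol the arm. In the first 20 kb the highest score is 1.32 in replicate 1 and 1.45 in replicate 2, whereas X clusters between 100 and 140 kb reach 2.95 in replicate 1 and 4.84 in replicate 2.

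The scale of the score is not stated, so scores of different lists stand side by side here and differences between them were not read. The median score was 0.78 over the 16 clusters of the ends in replicate 1, beside 0.68 over the 1117 clusters in the rest of the 4 arms, and 0.89 over 17 clusters beside 0.68 over 1259 in replicate 2. A score of 2 or more was held by 3 of 16 clusters in replicate 1 and 3 of 17 in replicate 2, and in the rest of the arms by 2.95% and 3.73% of clusters. All of those in the ends lay on X between 103.4 and 137.1 kb, except the 3L cluster of replicate 1 at 27.3 kb. The whole lists include heterochromatin, and their median score was 1.75 for replicate 1, 1.43 for replicate 2 and 0.59 for the combined list. It was reached by 3 of 16 and 4 of 17 clusters of the ends in the replicates, but by 17 of 25 in the combined list.

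Window counts gave the agreement between replicates. Windows covered over at least 50% of their length numbered 52 in replicate 1 (6.50% of the 800) and 72 in replicate 2 (9.00%). Over all 97881 windows of the 4 arms, centromere-side stretches included, the shares were 5.82% and 6.66%. In the combined list they were 94 windows (11.75%), beside 9.46% over the arms. Both replicates covered 48 windows (6.00%), beside 5.21% over the arms. The ends as a whole thus held a share of covered windows near that of arms counted with their centromere-side stretches. Without the centromere-side 2 Mb, the rest of the arms was covered by base at 3.16% in replicate 1 and 3.85% in replicate 2. The ends were covered by base at 6.49% and 9.12%. Of the 48 windows covered in both replicates, 24 lay on X, 14 on 3L, 7 on 2L and 3 on 3R. X was also the most covered arm in the rest, at 7.90% by base, beside 2.14% on 3L, 2.93% on 2L and 1.68% on 3R. Replicate 1 alone covered 4 windows and replicate 2 alone covered 24, of which 15 lay on X.

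Counted by base, 93.2% of the bases covered in replicate 1 were covered in replicate 2, and 66.3% of those in replicate 2 were covered in replicate 1. In the rest of the 4 arms these shares were 82.1% and 67.4%. Bases covered in both over bases in either made 0.633 for the 4 ends and 0.587 for the rest of the 4 arms. By arm this index was 0.730 on 3R, 0.728 on 2L, 0.670 on 3L and 0.577 on X. A cluster of replicate 2 overlapped 15 of the 16 clusters of replicate 1. Set against the one with which it shared most bases, the replicate 2 cluster was wider in 11 of 15 cases. On X the replicate 1 clusters starting at 98159 and at 103428 were both set against the same replicate 2 cluster, from 98146 to 105098. That cluster is thus counted in more than 1 case. The median distance was 223 bp between telomere-side edges and 433 bp between inner edges.

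The combined list held 18914 covered bases of the ends that neither replicate covered, and 79.8% of its covered bases lay in at least 1 replicate, beside 68.0% in the rest of the 4 arms. Both replicates overlapped 12 of its 25 clusters, a single replicate overlapped 4, and 9 had no overlap. These are 48.0%, 16.0% and 36.0%, beside 37.5%, 23.9% and 38.6% of the 2190 combined clusters in the rest of the arms. The 12 had a median width of 5516.5 bp and scores from 0.40 to 1.40. The 9 had widths from 1001 to 1721 bp and scores from 0.13 to 3.47, and 4 of them were narrower than 1301 bp, the narrowest cluster in either replicate list. The 4 that overlapped 1 replicate had scores from 1.60 to 3.07, above every combined cluster that overlapped both. They were the 3L cluster near 27 kb and the 3 X clusters between 130.1 and 137.5 kb. The combined list rests on the same libraries, so it is no independent measurement.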

How the data were processed

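ChIP for H3K9me3 and input libraries were sequenced from Oregon-R third-instar larval nuclei, in 2 samples each, grouped by their titles. The authors deposited clusters of significant enrichment with a score per cluster, in 1 list per ChIP replicate and 1 for the replicate set. Per the file headers, the coordinates are those of FlyBase release 5. Bowtie 0.12.7 is named in the submitters' processing notes without its role. Not given in the sources used here are the caller, its threshold, the treatment of repeat reads, the step that combined the replicates and the scale of the score. How repeat reads were treated could change coverage at repeat-rich arm ends. The strain sequenced for the reference genome is not Oregon-R. No read totals came with the lists, so the depth behind each cluster is unknown and no interval was computed.

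Coverage was counted by base, per end, per 1 kb window and per tile. Where clusters overlap, a base takes the higher score. Clusters of the rest were assigned by midpoint. The combined list has 3 regions of depletion, of which 0 lie in the ends, and they were left out. The coverage code was checked on 80 simulated arms, with 0 mismatches. Python 3.11.15, numpy 2.4.6, pandas 2.3.3 and matplotlib 3.10.9 were used. The ends and the choices of processing were made with earlier results of these data known. The naming rule took, in each end, the combined cluster nearest to the telomere, the widest, the highest-scoring and the widest empty stretch. It also took the 3 protein-coding genes nearest each arm end in the RefSeq table. Other clusters were named after their values were seen. No genome of release 5 was used, so no sequence is shown.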

Additional observations from a re-analysis of the deposited data

How the results depend on the processing

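Over 12 results, 71 alternatives other than leaving out a replicate were computed; 30 moved a value by less than 1 SD between replicates (counts by less than 1.5 times), 38 moved it further and 3 turned a direction. The replicates left out in turn gave, with 2 replicates, the other replicate's value. These ranges were 6.49% to 9.12% for the 4 ends, 3.95% to 5.43% on 2L, 7.81% to 8.42% on 3L, 1.91% to 2.62% on 3R and 12.3% to 20.0% on X. The difference from the rest ranged from 3.33 to 5.28 percentage points over the 4 arms, 1.18 to 2.33 on 2L, 5.86 to 6.10 on 3L, 0.349 to 0.816 on 3R and 5.38 to 11.1 on X. Windows covered in both became 52 or 72 in a single replicate.

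Keeping clusters at or above the median score lowered coverage by construction, to 1.65% for the 4 ends, 0% on 2L and 3R, 0.458% on 3L and 6.16% on X. The differences became 1.27 percentage points over the 4 arms, 5.54 on X, 0.283 on 3L and, reversed, -0.624 on 2L and -0.182 on 3R. With this limit 2 windows and 1 combined cluster were shared. On 3L the difference was 0.795 percentage points in replicate 1 and -0.229 in replicate 2. Ends of 100 kb gave 11.7% for the 4 ends, 9.38% on 2L, 14.3% on 3L, 4.53% on 3R and 18.4% on X. The differences were then 8.15 percentage points over the arms, 6.47 on 2L, 12.2 on 3L, 2.85 on 3R and 10.5 on X. On 2L and 3R every replicate cluster of the end lies within these 100 kb, so coverage there rose by construction. Ends of 400 kb gave 5.73%, and 6.28% on 2L, 5.98% on 3L, 1.13% on 3R and 9.53% on X. Their differences were 2.23 over the arms, 3.39 on 2L, 3.85 on 3L, 1.57 on X and, reversed, -0.562 on 3R. On 3R neither replicate has a cluster from 200 to 400 kb, so the longer end has a lower coverage by construction. The combined list gave 11.7% for the 4 ends, 6.85%, 11.4%, 4.57% and 23.9% on 2L, 3L, 3R and X, and a difference of 7.38 on 3L. Clusters of 2000 bp or wider gave 6.92% on 3L and differences of 5.52 on 3L and 1.31 on 3R. Leaving out 1 Mb at the centromere side gave 3.82 on 3L. Without the X arm, chosen after seeing the data, the ends were covered at 5.02% and the difference was 2.82. The differences by arm were also added after seeing the data. Except where stated, the cause was not tested. No paired analysis was possible because the shared replicate numbers join ChIP and input libraries, and the inputs have no cluster list here; the differences between end and rest were taken within each replicate.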
